A study of Rattus norvegicus with 6 samples.

Results

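The eicosanoid genes described here were 10 genes of lipoxygenase, cyclooxygenase, phospholipase and prostaglandin metabolism, of 4737 genes that the array named. They were listed by symbol (Alox15, Alox5, Alox5ap, Ptgs1, Ptgs2, Pla2g4a, Pla2g2a, Ptgds, Ptgis and Slco2a1), and every probe set that the platform annotation gave to 1 of them was taken, 14 in all. The genes were chosen by name around Alox15, itself selected on its low intensity on the treated arrays, a difference from control that was already known, so the differences of these genes from control are given as a description with no test. Capillaries of the brain of SHRSP, spontaneously hypertensive rats of a stroke-prone line, were measured on 6 Affymetrix rat genome arrays, 2 in each of 3 groups, labelled SHRSP control, SHRSP ACEI and SHRSP ARB. The rats were 6 weeks old. The ACEI group was read as the lisinopril group (6 mg/kg body weight per day, an inhibitor of the angiotensin-converting enzyme) and the ARB group as the olmesartan group (4 mg/kg by mouth per day, a blocker of the angiotensin type 1 receptor), from the class of each drug. The labels also name 1% NaCl without saying which groups received it. How long the drugs were given, and whether an array held RNA of 1 rat or of several, are not stated in the labels. Every error below therefore measures only spread between arrays, and limma drew it toward the spread of all fitted probe sets. The question that the series title poses is how angiotensin II bears on gene expression in cerebral microcapillaries.

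Eicosanoids are signalling lipids made from arachidonic acid. Phospholipases release the acid from membranes, cyclooxygenases turn it into the precursor of prostaglandins and thromboxane, and lipoxygenases turn it into leukotrienes and hydroxylated fatty acids. Terminal synthases then form single prostanoids, among them prostacyclin, which relaxes vessels and inhibits platelets, and a carrier in the cell membrane takes prostaglandins back up. In the vessel wall these lipids set tone, permeability and the traffic of leukocytes.

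Of the 10 genes, 8 had a probe set above the filter on low values, and 12 of the 14 probe sets were above it. The probe sets of Alox5 and Pla2g2a lay in the 40% with the lowest mean signal. The deposited table gives 1 intensity per probe set and array on a linear scale, with no detection calls. As a guide to background, the median of the 15 probe sets for foreign transcripts was between 18.4 and 28.8 on the control and ACEI arrays and 91.4 and 80.9 with ARB. Per the file headers, the arrays were run on 2 days, the earlier holding control 1 and ACEI 1 and the later the other 4. For Gapdh the 3′ probe set was 7.31 times the 5′ probe set on control 2, a sign of short or degraded RNA, and 0.933 to 1.59 times it elsewhere. The summed signal of 13 endothelial genes was 75317 on control 1 and 151404 on control 2, but its genes went both ways between them: Slc2a1 was at 33691 and 66763 and Slco1a4 at 17074 and 79016, whereas Pecam1 was at 5538 and 194 and Vwf at 596 and 49.2. The summed signal of 13 neuronal genes was between 2959 and 5008 in control and between 6561 and 9300 on the treated ones. The part of these array differences in the results was not tested.

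Promoter sequence from RefSeq (build GRCr8) was at hand for 7 of the 10 genes, and not for Alox15, Alox5ap and Ptgis. The 250 bases before the annotated start are shown for 3 genes, Ptgs2, Pla2g4a and Slco2a1. Ptgs2 and Pla2g4a, the cyclooxygenase gene and the gene of the phospholipase that supplies it, are neighbours in the genome with 0 protein-coding genes between them in GRCr8. Slco2a1 was taken because its second probe set (rc_AA800797_at) had the lowest difference from control after Alox15 (-2.16 for the mean of both drugs). Its first probe set was at 0.08. Each sequence is written 5′ to 3′ on the strand of its gene, and capitals mark matches on either strand to CCAAT, to the letters TATAAA of a TATA box, or to the short GC-rich run CACCC.

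Ptgs2, chr13:64713813-64714062, plus strand: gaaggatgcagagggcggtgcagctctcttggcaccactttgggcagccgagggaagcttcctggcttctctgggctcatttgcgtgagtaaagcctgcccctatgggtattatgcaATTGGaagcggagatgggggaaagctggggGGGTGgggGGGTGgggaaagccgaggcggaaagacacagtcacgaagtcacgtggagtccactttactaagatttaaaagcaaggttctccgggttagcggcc
Pla2g4a, chr13:64572353-64572602, minus strand: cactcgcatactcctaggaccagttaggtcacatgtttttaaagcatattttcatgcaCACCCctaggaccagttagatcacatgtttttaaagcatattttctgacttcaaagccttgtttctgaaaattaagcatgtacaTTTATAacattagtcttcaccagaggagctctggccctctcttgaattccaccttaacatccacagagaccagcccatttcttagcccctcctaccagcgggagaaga
Slco2a1, chr8:112467489-112467738, plus strand: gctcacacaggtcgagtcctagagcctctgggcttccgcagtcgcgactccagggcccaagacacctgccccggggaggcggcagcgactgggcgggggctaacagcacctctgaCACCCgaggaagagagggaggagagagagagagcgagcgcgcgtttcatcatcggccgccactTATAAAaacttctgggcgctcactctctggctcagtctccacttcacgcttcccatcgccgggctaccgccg

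CCAAT lay before Ptgs2, as its reverse complement 133 bases before the start, and also before Pla2g2a, while 34% of all 33469 promoter windows of this length hold it. TATAAA lay before Slco2a1, 72 bases before the start, and in reverse before Pla2g4a, against 12.9% of all windows. CACCC was in all 7 windows and in 49.2% of all. The STAT type TTCNNNGAA, held by 7.67% of all windows, was in 0 of the 7 windows. So were the AP-1 type, spelled TGANTCA (6.34% of all), and the GATA type, spelled AGATAA (10.3%). The same held for TGACG, the core of the cyclic AMP element (18.2%), for the whole element TGACGTCA (1.59%), and for the letters searched for STAT6 (6.25%) and NF-kappa-B (0.164%).

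**Figure D1:**
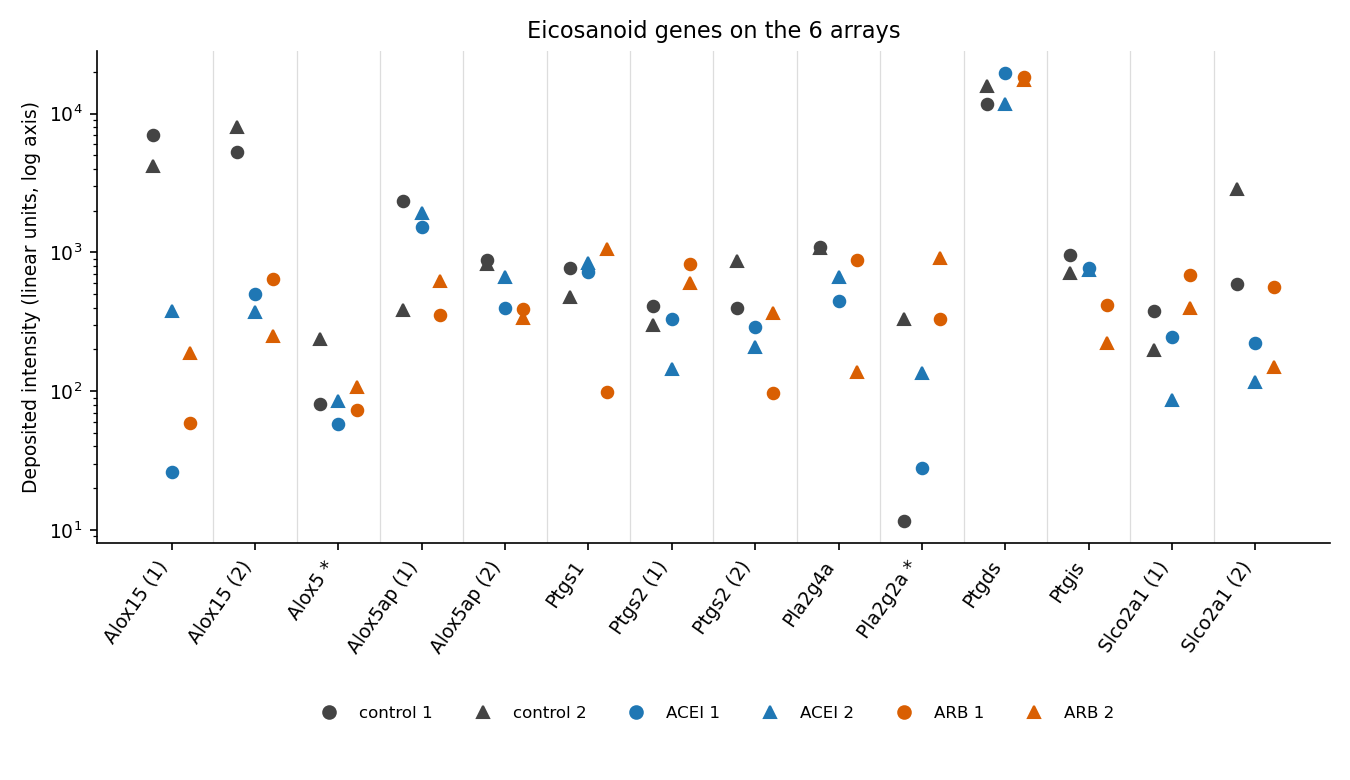
Deposited intensity (linear units on a log axis) of the 14 probe sets of the 10 genes on each of the 6 arrays; circles are replicate 1 and triangles replicate 2, grey is control, blue ACEI and orange ARB, numbers in brackets tell probe sets of a gene apart in the order of the text, and an asterisk marks a probe set below the filter. Both Alox15 probe sets lie between 4196 and 8055 in control and between 26.1 and 642.5 on the 4 treated arrays, while Ptgds stays between 11744 and 19585 on all 6.

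Alox15 encodes the leukocyte-type lipoxygenase, which oxidises arachidonic acid in membranes and is known from macrophages, eosinophils and reticulocytes. Its first probe set (L06040_s_at) had an intensity of 7037 and 4196 on control 1 and 2, of 26.1 and 378 on ACEI 1 and 2, and of 58.8 and 189 on ARB 1 and 2. Its second probe set (S69383_at) read 5332 and 8055 in control, 500.2 and 369 with ACEI, and 642.5 and 251 with ARB. In both, the 4 treated arrays were far below both controls with no overlap, and the 2 drugs overlapped each other. For the first probe set, ACEI 1 at 26.1 and ARB 1 at 58.8 lay below the foreign-transcript medians of those arrays (28.8 and 91.4), so the size of its difference depends on the offset of 90 added before the log2.

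On the log2 scale of intensity plus 90, the mean of both drugs minus control, called RAS blockade below, was -4.66 ± 0.62 (SE of the limma model; n = 2 control and 4 treated arrays) for the first probe set and -3.70 ± 0.46 for the second. The differences were -4.57 ± 0.71 and -3.67 ± 0.54 for ACEI and -4.76 ± 0.71 and -3.73 ± 0.54 for ARB, with 2 arrays a group. These comparisons share the control arrays. By RAS blockade the pair ranked the lowest and the third lowest of the 5244 probe sets that were fitted. Without ACEI 1 the ACEI value of the first probe set was -3.56, and without ACEI 2 it was -5.57. Within the first run day ACEI minus control was -5.94 and -3.20 for the 2 probe sets, and within the later day -3.20 and -4.15, where ARB minus control was -4.39 and -4.03. Blocking on run day gave -4.82 and -3.73 for RAS blockade. Each control array was therefore well above the treated arrays of its own run day.

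The other arm of the lipoxygenase branch makes leukotrienes and was read by Alox5, the leukotriene-forming lipoxygenase, and Alox5ap, the membrane protein that hands it arachidonic acid. Alox5 (J03960_at) was at 80.3 and 239 in control, 58.2 and 85.5 with ACEI and 73.7 and 108 with ARB, so only control 2 stood apart and both ARB values were near the foreign-transcript medians. It was below the filter, and its unfiltered RAS blockade difference was -0.48 ± 0.38. The first Alox5ap probe set (X52196cds_at) read 2335 and 382 in control, 1515 and 1934 with ACEI and 353 and 624.5 with ARB. Control 2 was as low as the ARB arrays there, and the difference (-0.09 ± 0.64) became -1.27 without control 2 and 1.09 without control 1. The second probe set (rc_AI104781_at) was at 876 and 831 in control and between 339 and 663 on the 4 treated arrays, with no overlap and a difference of -0.85 ± 0.40 (-0.60 to -1.14 over all alternatives). The second probe set thus gave lower values with both drugs, whereas in the first the control arrays overlapped those of both drugs.

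**Figure D2:**
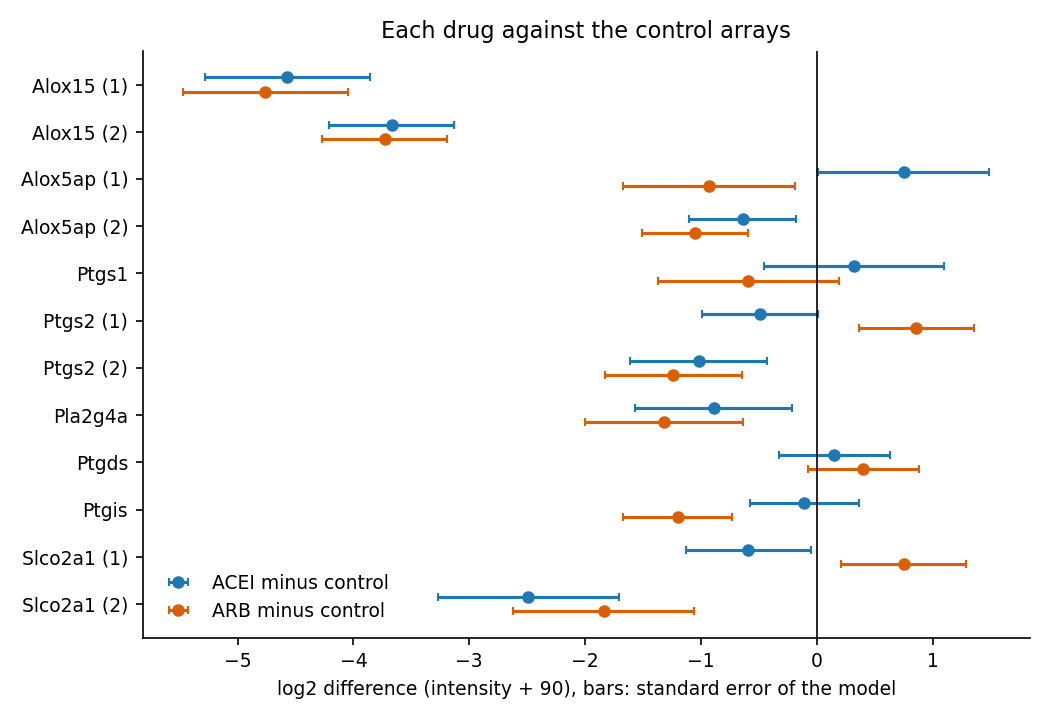
log2 difference (intensity plus 90) of each drug from control for the 12 probe sets above the filter; points are model estimates from 2 arrays a group and bars their standard errors, blue for ACEI and orange for ARB, which share the 2 control arrays. Alox15 lies between -3.67 and -4.76 with either drug. Ptgs2 (1) and Slco2a1 (1) lie below 0 with ACEI (-0.49 and -0.59) and above 0 with ARB (0.86 and 0.75, or 0.33 and 0.17 after quantile normalization).

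Release of arachidonic acid was read by Pla2g4a, the calcium-dependent cytosolic phospholipase, and Pla2g2a, a secreted phospholipase that is induced in inflammation. Pla2g4a (U38376_s_at) had an intensity of 1091 and 1082 in control, 448.5 and 662 with ACEI, and 882 and 138 with ARB. All treated arrays were below both controls, but the ARB arrays were far apart. Its difference was -1.10 ± 0.59 for RAS blockade, -0.89 ± 0.68 for ACEI and -1.32 ± 0.68 for ARB. The ARB value rested on 1 array, since it was -0.28 without ARB 2 and -2.37 without ARB 1, and ACEI minus control was -1.13 on the first run day and -0.64 on the later. Pla2g2a (X51529_at), below the filter, read 11.7 and 331 in control, 28.2 and 135.5 with ACEI and 332 and 911 with ARB. Its control arrays differed from each other by 2.05 on the log2 scale, more than the unfiltered RAS blockade difference of 0.65 ± 0.68.

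The cyclooxygenases are Ptgs1, the constitutive form of platelets and endothelium, and Ptgs2, the inducible form. Ptgs1 (U03388_s_at) was at 771 and 475 in control, 721 and 839.5 with ACEI, and 98.7 and 1055 with ARB. Only ARB 1 stood apart, so the ARB difference of -0.59 ± 0.78 was 0.71 without that array, and the ACEI difference was 0.32 ± 0.78. The first Ptgs2 probe set (L25925_s_at) read 412 and 300 in control, 334 and 144 with ACEI, and 832 and 607 with ARB. The ARB arrays were above all others there, at 0.86 ± 0.50, against -0.49 ± 0.50 for ACEI. After quantile and cyclic loess normalization the ARB difference was only 0.33 and 0.32. The second Ptgs2 probe set (S67722_s_at) read 399 and 872 in control, 291 and 210 with ACEI, and 96.4 and 364 with ARB. Here all treated arrays were below both controls, with -1.02 ± 0.59 for ACEI and -1.24 ± 0.59 for ARB, and RAS blockade was -1.13 ± 0.51, or -0.64 without control 2 and -1.62 without control 1. For ARB the probe sets of Ptgs2 had opposite signs, so no direction is given for the gene. An s in the name of a probe set marks probes that may match more than 1 transcript.

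The terminal synthases were Ptgds, which makes prostaglandin D in the meninges and the choroid plexus and is one of the abundant proteins of cerebrospinal fluid, and Ptgis, which makes prostacyclin in endothelium and smooth muscle. Ptgds (J04488_at) had an intensity of 11744 and 15853 in control, 19585 and 11756.5 with ACEI, and 18452 and 17599 with ARB. The groups lay within 2-fold of each other, with a RAS blockade difference of 0.28 ± 0.42. With quantile normalization it was 0.54, with cyclic loess 0.61, and on the later run day alone -0.12. The summed signal of 4 choroid plexus genes was between 54989 and 135792 in control, 57361 and 80509 with ACEI, and 255653 and 258392 with ARB. Its genes went both ways: with ARB 3 were higher than control and 1 lower (58.1% and 41.9% of all probe sets). For ARB versus ACEI 2 were higher and 2 lower (56.5% and 43.5% of all). The summed signal of 15 meningeal and fibroblast genes was between 44922 and 85561 in control and between 35418 and 54712 on the treated ones. In bulk RNA, fewer cells of a type and less RNA per cell cannot be told apart.

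Ptgis (U53855_at) read 960 and 711 in control, 775 and 750 with ACEI, and 416 and 224 with ARB. The ACEI arrays lay between the controls and the ARB arrays below them, with -0.11 ± 0.47 for ACEI and -1.20 ± 0.47 for ARB. Within the later run day ARB minus control was -1.01, and the ARB value ran from -0.82 to -1.77 over all alternatives. The summed signal of 13 endothelial genes was between 75317 and 151404 in control, 76900 and 83863 with ACEI and 66540 and 77971 with ARB, and that of 12 pericyte and smooth muscle genes was between 37666 and 49091 in control and between 21832 and 28519 on the treated ones. The part of these cell types in the Ptgis values was not tested.

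Slco2a1 encodes the carrier that takes prostaglandins up from the extracellular space and is known from brain endothelium. Its first probe set (M64862_at) was at 376 and 197 in control, 245 and 87.0 with ACEI and 690 and 396 with ARB, with the ARB arrays above all others. Its second probe set (rc_AA800797_at) was at 589 and 2881 in control, 222 and 116 with ACEI, and 567 and 150 with ARB. There the treated arrays were all below the controls, ARB 1 by little. The RAS blockade difference was 0.08 ± 0.47 for the first and -2.16 ± 0.67 for the second, which was -1.10 without control 2 and -3.23 without control 1. The 2 probe sets therefore disagreed in sign with ARB (0.75 ± 0.54 and -1.84 ± 0.78), and no direction is given for the gene. After quantile and cyclic loess normalization the first was only at 0.17 and 0.12 with ARB, and the second at -2.24 and -2.34.

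**Figure D3:**
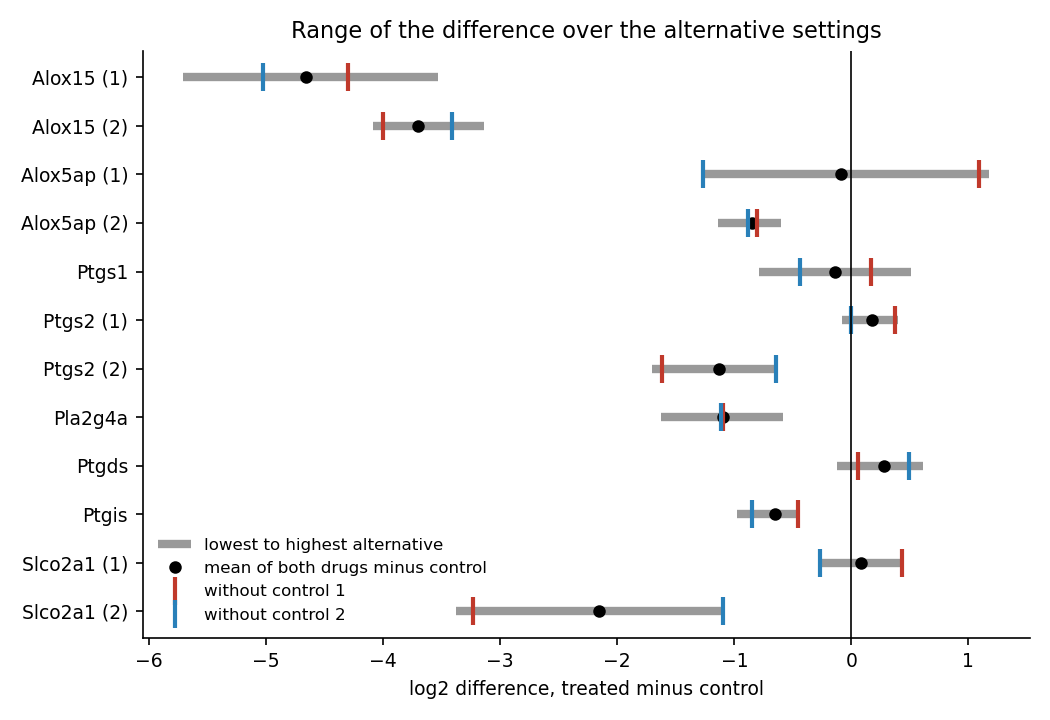
log2 difference of the mean of both drugs from control for the 12 probe sets above the filter: black points are the values in the text, grey bars span the lowest and highest value over the 16 alternative settings that gave one, and red and blue ticks are the values without control 1 and without control 2. Alox15 stays between -5.71 and -3.14, whereas Alox5ap (1) runs from -1.27 to 1.18 and Slco2a1 (2) from -3.38 to -1.10.

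As probe sets, 9 of the 12 were lower with RAS blockade and 3 higher, with a median of -0.75 against 0.13 over all 5244. In 6 of them, all lower, the 4 treated arrays lay beyond both controls (both of Alox15, the second ones of Alox5ap, Ptgs2 and Slco2a1, and Pla2g4a); over all probe sets the background of this was 3.72% lower and 4.63% higher. For either sign, 40.4% of all were lower and 59.6% higher. With ACEI 9 of the 12 were lower (53.1% of all) and 3 higher (46.9%), 6 with both ACEI arrays below both controls (11.9%) and 0 above (11.6%). With ARB 9 were lower (41.9%) and 3 higher (58.1%), 7 without overlap below (16.8%) and 3 above (33.4%). The choice of the genes used these contrasts, so nothing is read from the counts. In limma 0 of 5244 probe sets (0%) passed an adjusted p of 0.05 for RAS blockade, where 266 had an unadjusted p under 0.05. Another scaling moves the low values: for RAS blockade the median of all probe sets was 0.13 as fitted, -0.03 with quantile and 0.02 with cyclic loess normalization, and for ARB it was 0.18, -0.07 and -0.001. Relative to the median of all, Alox15 was at -4.80 and -3.83. The first probe sets of Ptgs2 and Slco2a1, at 0.18 and 0.08 for RAS blockade, were at -0.07 and -0.21 after quantile normalization, and at -0.08 and -0.23 after cyclic loess, and so had no settled sign.

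The drugs were also compared with each other. The ARB versus ACEI difference does not use the control arrays, which enter only the estimate of the spread. Alox15 was itself selected on its treated arrays, so its difference between the drugs is given as a description, while the counts below include it. In limma 0 of the 12 probe sets passed the adjustment over all 5244 (0% of which passed, with 1171 at an unadjusted p under 0.05). At an unadjusted p under 0.05 were the first probe sets of Ptgs2 (1.35 ± 0.50, adjusted p = 0.172) and Slco2a1 (1.34 ± 0.54, adjusted p = 0.198), higher with ARB, and Ptgis (-1.10 ± 0.47, adjusted p = 0.220), lower with ARB. The first Slco2a1 probe set, at 87.0 to 376 on the control and ACEI arrays, passed the filter through its ARB arrays (690 and 396). Its difference is therefore not read as a comparison of the drugs, though the counts below include it. Of the 12, 8 were lower (43.5% of all) and 4 higher (56.5%), with 3 below without overlap (25.3%) and 2 above (37.1%). At the unadjusted p 2 of 12 were higher and 1 lower, while over all probe sets 15.6% were higher and 6.71% lower at that level. After quantile normalization Ptgs2 was at 0.81, Slco2a1 at 0.77 and Ptgis at -1.58. The first Alox5ap probe set was at -1.68 ± 0.74 (adjusted p = 0.227) with both ARB arrays below both ACEI arrays. For the second Alox15 probe set ARB minus ACEI was -0.06 ± 0.54 (95% interval -1.28 to 1.17). A difference between the drugs within that interval could not be detected with 2 arrays a group. The first Alox15 probe set passed the filter through its control arrays and read near background on ACEI 1 and ARB 1, so its difference between the drugs depends on the offset (-0.19 with 90, 0.07 with 1) and is not read as a comparison of them.

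Of 84 further genes of the pathway, 45 had a named probe set and 29 passed the filter at 1 probe set a gene. In limma 0 of the 29 passed in any of the 4 comparisons (lowest adjusted p = 0.863 for RAS blockade, 0.992 for ACEI, 0.207 for ARB and 0.135 for ARB versus ACEI). With RAS blockade 20 were higher and 9 lower (59.6% and 40.4% of all probe sets), with a median of 0.10 against 0.13 over all. At an unadjusted p under 0.05 there was 1 gene for RAS blockade (lower, against 2.02% of all probe sets lower and 3.05% higher) and 1 for ACEI (lower, against 1.39% and 1.2%). For ARB there was 1 higher and 2 lower (12.6% and 4.69% of all), and for ARB versus ACEI 4 higher and 1 lower (15.6% and 6.71%).

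The gene with that p for RAS blockade was Anxa1, annexin A1, a glucocorticoid-induced protein that inhibits phospholipase activity and ends leukocyte recruitment. The probe set that stood for it (rc_AI171962_s_at) read 712 and 1193 in control, 278 and 338 with ACEI and 357 and 259.5 with ARB, all treated below both controls. The difference was -1.36 ± 0.41 (limma, adjusted p = 0.863), while its other probe set was at -0.16 ± 0.46 with overlapping groups. The phospholipase Plaat3 was at 0.49 ± 0.40.

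**Figure D4:**
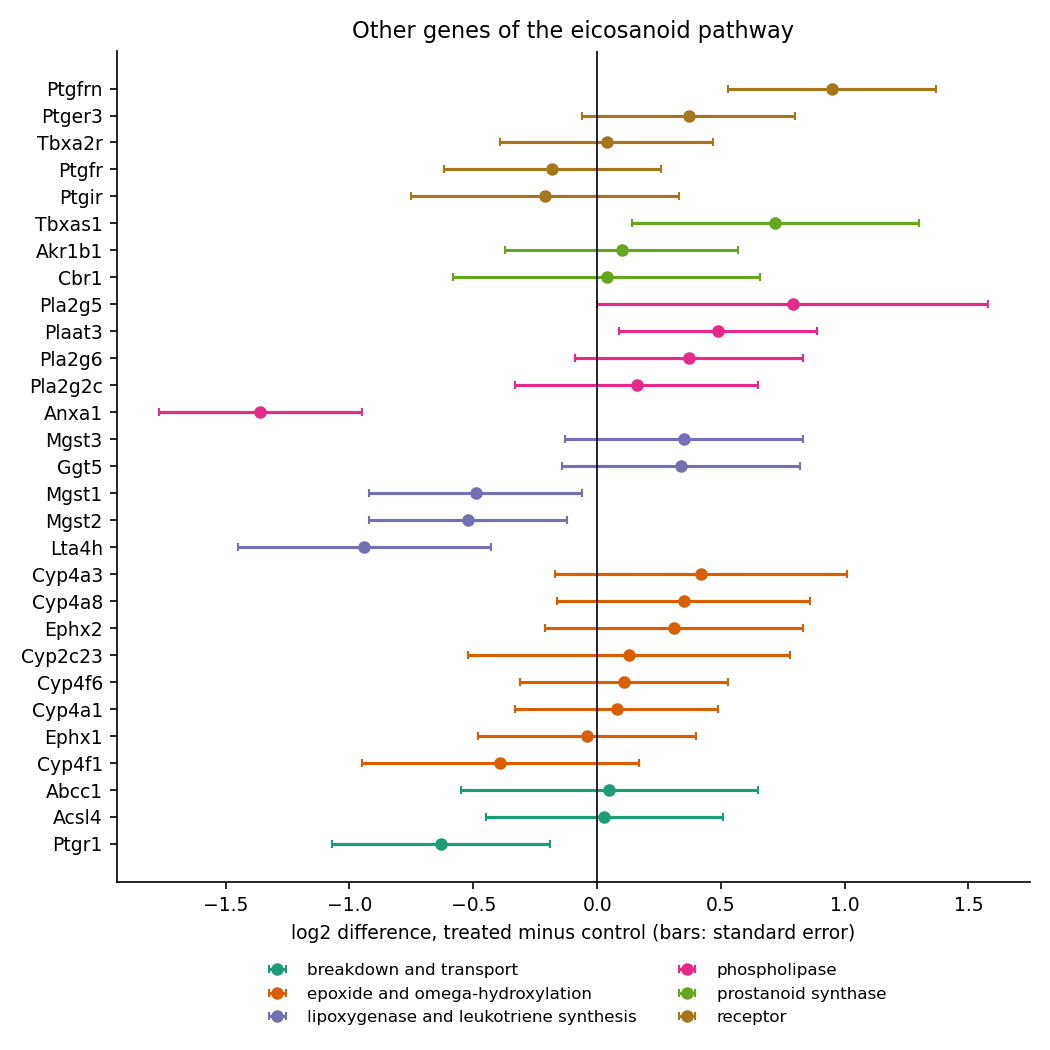
log2 difference of the mean of both drugs from control for the 29 further pathway genes above the filter (1 probe set a gene), coloured by role; points are model estimates from 2 control and 4 treated arrays and bars their standard errors. They lie between -1.36 (Anxa1) and 0.95 (Ptgfrn), all nearer to 0 than the Alox15 values of -4.66 and -3.70.

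In leukotriene synthesis, Lta4h, the hydrolase that forms leukotriene B, was at -0.94 ± 0.51, but its other probe set was at 0.75 ± 0.39, with both ACEI and both ARB arrays above the controls. Mgst2, which can form leukotriene C, was at -0.52 ± 0.40. Among the prostanoid synthases, Tbxas1, the thromboxane synthase of platelets and macrophages, was at 0.72 ± 0.58, or -0.26 without control 2, whose intensity was 56.7, and the carbonyl reductase Cbr1 was at 0.04 ± 0.62.

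Among the receptors, Ptgfr, the receptor of prostaglandin F, read 463 and 566 in control, 111 and 327 with ACEI and 827 and 942 with ARB, so that ARB minus ACEI was 1.75 ± 0.51 (limma, adjusted p = 0.139). Ptgfrn, a membrane protein that inhibits this receptor, read 415 and 247 in control and 1242 and 1137 with ARB, at 1.63 ± 0.48 for ARB (adjusted p = 0.207) and 0.27 ± 0.48 for ACEI. The prostacyclin receptor Ptgir was at -0.21 ± 0.54. Of the 5 receptor genes above the filter, 5 were higher with ARB (1 of them at an unadjusted p under 0.05), with a median of 0.69, where 58.1% of all probe sets were higher.

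Of the genes of breakdown and transport, Ptgr1, the reductase that inactivates prostaglandins and leukotriene B, read 639 and 449 in control and 106 and 232 with ARB, at -1.32 ± 0.51 for ARB (adjusted p = 0.257) and 0.06 ± 0.51 for ACEI. Acsl4, which returns arachidonic acid to membranes, was at 0.03 ± 0.48 for RAS blockade. Cyp4a1 and Cyp4a8, hydroxylases of fatty acids, were at 0.08 ± 0.41 and 0.35 ± 0.51 for RAS blockade, a mean of drugs with opposite signs. Cyp4a1 was at -0.77 ± 0.47 with ACEI and 0.94 ± 0.47 with ARB, and Cyp4a8 at -0.35 ± 0.58 and 1.04 ± 0.58. The other Cyp4a8 probe set (rc_AA893011_at) was at -0.46 ± 0.55 with ACEI and 1.98 ± 0.55 with ARB (limma, adjusted p = 0.201 for ARB).

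Alox15 is known to be induced by interleukin 4 and 13, so their receptors and kinases were set beside it. Of 7 measured genes 5 passed the filter, and 4 were higher and 1 lower with RAS blockade (59.6% and 40.4% of all probe sets). None of them passed the adjustment (0 of 5244 in limma). The adaptor gene Irs2 was at 1.08 ± 0.47 (limma, adjusted p = 0.863), the kinase gene Jak1 at 0.91 ± 0.61 and the kinase gene Jak3 at -0.99 ± 0.43 (adjusted p = 0.863). Irs2 read 129 and 174 in control, 254.5 and 77.9 with ACEI, and 1336 and 713 with ARB. Its value thus rested on ARB, through which it passed the filter. Jak3 passed the filter through its control arrays. Jak1 read 484 and 31.7 in control, and its difference was -0.20 without control 2. The receptor gene Il4r read 1844 and 206 in control and between 989 and 1532 on the treated ones, so that control 2 alone was low. Il4 and Il13 themselves lay below the filter, with 10.2 and 161 for Il4 and 158 and 104 for Il13 in control. With ACEI Il4 read 26.0 and 16.1 and Il13 222.5 and 84.0. With ARB Il4 read 106 and 179 and Il13 909 and 245.

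Markers of blood and immune cells were in part lower on the treated arrays too. The lists of macrophages, eosinophils and reticulocytes stand for cells from which Alox15 is known. The neutrophil list is not among these and was set beside them. Of 6 neutrophil genes tested 4 were lower with RAS blockade and 2 higher, against 40.4% and 59.6% of all probe sets. S100a8 was at -2.17 ± 0.51, S100a9 at -2.11 ± 0.50 and Padi4 at -1.38 ± 0.42. Padi4 passed the filter through its control arrays. Cxcr1 and Defa5 were at 0.60 ± 0.63 and 0.55 ± 0.44, and both ARB arrays were above both controls in each (2255 and 1541 against 429 and 522 for Cxcr1, 817 and 766 against 359.8 and 122 for Defa5). Defa5 passed the filter through its ARB arrays. The summed signal of the 9 measured genes was between 10503 and 10720 in control and between 4171 and 6012 on the treated arrays. Most of the control sum was S100a9 (4805 and 5310) and S100a8 (2686 and 2679). Of 14 macrophage and microglia genes 11 were lower (40.4% of all probe sets were), and in 2 of the 14 all treated arrays lay below both controls (3.72% of all). Lgals3 was at -2.21 ± 0.38, the complement gene C1qb at -1.30 ± 0.51 and RT1-Da at -1.08 ± 0.40. Lgals3 passed the filter through its control arrays. C1qb overlapped the controls with ACEI (5138 and 15963 against 12181 and 13245), at -0.48 ± 0.59, and was at -2.12 ± 0.59 with ARB. With ACEI 8 of the 14 were lower and 6 higher (53.1% and 46.9% of all probe sets). With ARB 11 were lower and 3 higher (41.9% and 58.1%). Their summed signal overlapped (68854 and 97850 in control against 46906 to 94184), and its size follows Apoe, which read 16044 and 56467 in control, 20654 and 27666 with ACEI, and 65282 and 74677 with ARB. For alternatively activated macrophages 2 of 8 measured genes passed the filter, of which the fibronectin gene Fn1 was at -1.14 ± 0.42 and Igf1 at 0.30 ± 0.43. Their sum, 13422 and 22145 in control and between 7443 and 10205 on the treated arrays, is mostly Fn1, a gene of many cell types that read 12546 and 21121 in control. Below the filter, Cd36 and Pparg had both ARB arrays above both controls.

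Of 6 reticulocyte and erythroid genes 5 were lower (40.4% of all probe sets were), 1 of them, Alas2, with all treated arrays below both controls. Alas2, of haem synthesis in red cell precursors, was at 10011 and 9087 in control and between 679.6 and 4310 on the treated ones, at -2.12 ± 0.52, whereas Hbb overlapped (21900 and 90197 against 34508 to 46802). Their sum was between 52277 and 164102 in control and between 50413 and 69502 on the treated ones. The 2 measured eosinophil genes, Prg2 and Ccr3, were below the filter, at 31.8 to 139 on all but 1 array, with Prg2 at 15.8 on ACEI 2. Their sum was highest with ARB (258 and 209), where the foreign-transcript medians were highest too (91.4 and 80.9). Of the measured genes of these lists 0 were at 0 on any array, and 0 passed the adjustment in limma. The part of these cells in the Alox15 values was not tested.

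**Figure D5:**
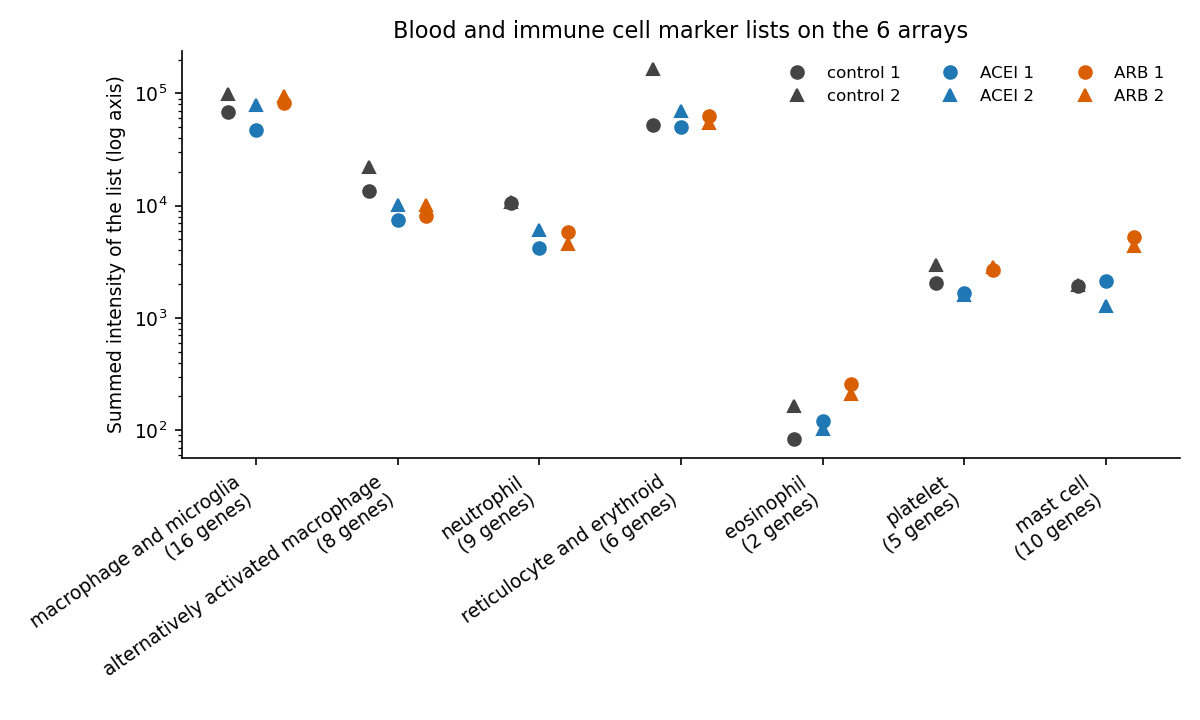
Summed intensity (log axis) of the measured genes of 7 blood and immune cell marker lists, 1 probe set a gene, on the 6 arrays; circles are replicate 1, triangles replicate 2, grey control, blue ACEI and orange ARB. The sums of the neutrophil list and of the alternatively activated macrophage list are lower on all 4 treated arrays than on both controls. In control the first is mostly S100a9 and S100a8, and the second is mostly Fn1. Those of the mast cell (5220 and 4342) and eosinophil (258 and 209) lists are highest with ARB. Of these lists only 2 of 10 mast cell and 0 of 2 eosinophil genes passed the filter, and the foreign-transcript medians were also highest with ARB (91.4 and 80.9). The sum of the platelet list is below both controls with ACEI (1657 and 1591).

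The genes with the pattern most like the second Alox15 probe set over the 6 arrays, by Pearson correlation of the log2 values and given as a description, were Casp1, a protease that activates interleukin 1 (r = 0.985), Spp1, osteopontin (r = 0.977), the smooth muscle actin gene Acta2 (r = 0.973), Anxa1 (r = 0.969) and Eif4ebp1, a translation inhibitor (r = 0.947). The next were Tmpo, Cxcl10, Rhd, Nr4a1 and Lgals3 (r = 0.938 to 0.917). The 6 points of each share the split into 2 high controls and 4 low treated arrays, so that r mostly restates this split. Their RAS blockade differences ranged from -0.53 (Tmpo) to -3.73 (Spp1).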

How the data were processed

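Values were the deposited intensities, 1 per probe set and array on a linear scale (2%-trimmed mean 997.7 to 1002.2 on every array), as the authors' array software gave them; its name and background correction are not given in the sources used here. After 59 control probe sets were left out, log2(intensity + 90) was taken, 90 being near the median positive value, 358.3, over 4. The dimmest 40% of 8740 by mean signal were dropped, and limma 3.58.1 in R 4.3.3 (lmFit, eBayes, Benjamini-Hochberg over 5244) was fitted over all 6 arrays with the 3 groups and no covariate. It was tested on simulated data. Tables used Python 3.11.15 with pandas 2.3.3, and figures matplotlib 3.10.9. Of all probe sets, 7018 had 1 symbol in the platform annotation, 308 several and 1473 none. The probe set with the highest mean stood for a gene in lists, and marker lists were summed over these; such sums weigh bright probe sets most.

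The members and lists were chosen with earlier results of these data known. Named were every member, per pathway role up to 2 genes with the lowest unadjusted p against control plus any with non-overlapping groups and a difference over 1, per marker list up to 3 genes with the largest difference, and the genes most correlated with Alox15 (10) or Ptgds (5). Ptgfr, Ptgir, Il4r, Il4, Il13, Igf1, Hbb, Apoe, Cxcr1, Defa5, Cd36, Pparg, Slc2a1, Slco1a4, Pecam1 and Vwf, where outside that rule, were chosen after their values were seen. The precision is limited by the number of arrays.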

Additional observations from a re-analysis of the deposited data

Results flagged for a closer look

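For 2 of the 45 further pathway genes measured, both ACEI arrays lay below and both ARB arrays above both control arrays. The 14 probe sets of the members were searched for this too. Over all probe sets 11.9% lay below both controls with ACEI and 33.4% above with ARB, and the share with both was not counted. Neither gene's difference from control had an unadjusted p under 0.05 in limma with either drug. For Ptgfr (S74898_s_at) ARB minus ACEI was 1.75 ± 0.51 on the log2 scale (limma, adjusted p = 0.139), and its other probe sets were below the filter. For Cyp4a1 (X07259cds_s_at) it was 1.71 ± 0.47 (limma, adjusted p = 0.135), with intensities of 209.6 and 219.9 in control, 113 and 66.9 with ACEI and 372 and 650.2 with ARB. This Cyp4a1 probe set passed the filter through its ARB arrays, where the foreign-transcript medians were 91.4 and 80.9. Its difference is therefore not read as a comparison of the drugs. Neither gene passed the adjusted threshold.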

How the results depend on the processing

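With 2 arrays a group, counts of calls over all 5244 probe sets depended on the setting. From 0 in each comparison, an offset equal to the median gave 3 for RAS blockade, 3 for ACEI, 4 for ARB and 4 for ARB versus ACEI. Quantile and cyclic loess normalization gave 1 each for RAS blockade, and array weights gave 518 for ARB versus ACEI. Leaving out 1 array gave 0 to 60 for RAS blockade (60 without control 1), 0 to 261 for ACEI (261 without control 1), 0 to 46 for ARB (46 without control 2) and 0 to 305 for ARB versus ACEI (305 without either control). With the replicate number as a block the counts were 3, 2, 4 and 1. Equal numbers did not pair arrays (correlations of deviations 0.045, -0.017 and 0.002), and the number coincides with the fluidics protocol.

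RAS blockade for Alox15 (L06040_s_at) was -5.71 with an offset of 1 and -3.53 with the median as offset, and -5.17 to -4.16 leaving out 1 array. For S69383_at it was -3.14 with the median as offset and -4.00 to -3.41 leaving out 1 array. ARB minus ACEI changed sign for Alox15 with an offset of 1 (0.07, L06040_s_at) and on the later run day (0.12, S69383_at). Leaving out 1 array, it ran from -1.20 to 0.81 and from -0.61 to 0.49 for these, from -2.20 to 0.40 for Ptgs1, -0.86 to 0.43 for Ptgs2 (S67722_s_at), -1.48 to 0.61 for Pla2g4a, -0.12 to 0.61 for Ptgds and -0.08 to 1.37 for Slco2a1 (rc_AA800797_at). RAS blockade after quantile and loess normalization was -0.31 and -0.18 for Cbr1, -0.25 and -0.25 for Cyp4a1 (-0.05 with an offset of 1, -0.03 on the later run day) and -0.24 and -0.23 for Acsl4. Leaving out 1 array, it ran from -0.97 to 1.06 for Cbr1, -0.09 to 0.25 for Cyp4a1, -0.63 to 0.68 for Acsl4, -0.26 to 1.70 for Tbxas1 and -0.45 to 0.08 for Ptgfr. The causes were not tested.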

Other observations

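The genes with the pattern most like Ptgds over the 6 arrays, given as a description, were the mucin gene Muc5ac (Pearson r = 0.989), Zhx2 (r = 0.981), the protease inhibitor gene A2m (r = 0.973), Cdk5r1 (r = 0.972) and the phosphatase gene Ppp1cb (r = 0.967). In A2m the intensity was 261 and 476 in control, 886 and 247 with ACEI and 740.3 and 894 with ARB, so ACEI 2 and control 1 were the low arrays, as they were for Ptgds. Probe sets of 1 gene also disagreed in sign for Plaat3, at 0.49 ± 0.40 and -0.65 ± 0.47 for RAS blockade.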
